A study of Mus musculus with 6 samples.

Results

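Atf2, Atf3, Atf4 and Hspa5 are 4 stress genes among the 445 genes in the deposited values of a custom array. These values cover antisense probes and, for most genes, a sense probe. The 4 genes were picked from these data for their tumor minus normal values. The signals below that set tumors against normal glands therefore describe the genes, and no test of them is used as support. The deposited values covered 21 probes of the 4 genes, namely 1 sense probe of each gene and 17 artificial antisense sequence (AFAS) probes. Of the AFAS probes, 5 belonged to Atf2, 4 to Atf3, 3 to Atf4 and 5 to Hspa5. Each AFAS probe is numbered here from 0, as in its probe name.

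The samples were mammary tumors (4) and normal mammary glands (2) of GRS/A mice, an inbred strain in which the mouse mammary tumor virus (MMTV) induces mammary tumors. No other genotype, treatment, age or time point was named for either group, and no source states if the samples of a group came from separate mice, so the spread reported here is the spread between these samples and may be in part technical. The extraction protocol in the labels names brain as the tissue, while the sample titles and the paper name mammary gland, and the titles set the groups. Total RNA was labeled with Cy3 in a random-primed cDNA reaction and hybridized to 60-base probes, 1 array per sample. Of the marker genes of mammary epithelium, 5 of the 10 listed had a sense probe. Krt14, a keratin of basal mammary cells, gave 1752 to 5193 in the tumors and 3692 and 2463 in the normal glands. The others, Krt18, Krt19, Prlr and Erbb3, were higher in every tumor than in both glands, an order found at 42.6% of all sense probes. None of the 5 listed nerve and brain markers and none of the 8 listed adipocyte markers had a probe among the deposited values. A value of 5 is the floor at which the authors listed every signal below 5 or not above background.

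ATF2, ATF3 and ATF4 are transcription factors of the basic leucine zipper (bZIP) class, which bind DNA as dimers and are best known for their part in stress responses. When the kinases of the integrated stress response phosphorylate the initiation factor eIF2, ATF4 is translated more, and it turns on genes of amino acid supply and of the endoplasmic reticulum (ER), among them Atf3. ATF2 is activated by the stress kinases JNK and p38 and often pairs with JUN, and HSPA5 (BiP, also GRP78) is the main chaperone of the ER and holds its stress sensors inactive until unfolded proteins accumulate.

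The sequences of 3 probes on which the results below turn are given 5′ to 3′ as the array carried them. The Hspa5 and Atf4 sense probes match the mRNA strand, and the Hspa5 AFAS probe is complementary to it.
Hspa5 sense: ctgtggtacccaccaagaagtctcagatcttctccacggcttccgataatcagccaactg
Atf4 sense: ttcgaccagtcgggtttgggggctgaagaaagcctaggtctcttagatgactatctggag
Hspa5 AFAS 3: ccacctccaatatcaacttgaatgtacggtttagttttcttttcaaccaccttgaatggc
No probe of a gene shared a run of 12 bases with another probe of that gene when all were read on the mRNA strand, so the probes of a gene covered different stretches of its transcript. Their GC content ran from 38.3% to 60.0%, the highest being that of Hspa5 AFAS 4.

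The RefSeq promoters of the 4 genes were searched on both strands for binding motifs of stress factors. The window ran from 250 bases before to 50 after the gene start (assembly GRCm38.p6). The 250 bases before the start are shown for Atf3 and Hspa5, whose promoters held the rarer motifs. Capitals mark the motif letters, which in Atf3 read on the opposite strand.
Atf3 promoter, chr1:191183334-191183583, minus strand: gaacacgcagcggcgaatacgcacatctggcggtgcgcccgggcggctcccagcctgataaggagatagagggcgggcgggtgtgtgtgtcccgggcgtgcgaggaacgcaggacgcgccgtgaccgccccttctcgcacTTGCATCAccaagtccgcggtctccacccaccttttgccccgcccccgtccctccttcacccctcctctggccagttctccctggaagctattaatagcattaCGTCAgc
Hspa5 promoter, chr2:34771840-34772089, plus strand: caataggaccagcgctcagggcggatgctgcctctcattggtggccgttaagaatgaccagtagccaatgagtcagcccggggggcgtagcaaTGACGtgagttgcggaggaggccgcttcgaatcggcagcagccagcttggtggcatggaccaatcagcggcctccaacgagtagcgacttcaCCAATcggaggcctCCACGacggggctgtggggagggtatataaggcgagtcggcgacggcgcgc
The ER stress element, written as CCAAT and CCACG with 9 bases between, is bound by the ER stress factor ATF6 together with NF-Y. It lay in the Hspa5 promoter, from 65 to 47 bases before the start (-65 to -47, with the start counted as 0), and in 0.119% of 32851 mouse promoters. The core of the amino acid response element, TGATGCAA, a sequence of the kind bound by ATF4 with C/EBP factors, lay in the Atf3 promoter at -110 to -103 and in 0.895% of all promoters, and it was searched only after the promoters had been seen. The shorter core of the cAMP response element (CRE), TGACG, was found in the promoters of Atf3 (-7 to -3), Atf4 (-12 to -8, and 40 to 44) and Hspa5 (-157 to -153), and in 20.8% of all promoters. The full CRE, TGACGTCA, which contains that core, was in none of the 4 promoters and in 1.79% of all, and the element TGATGNAAT was in none of the 4 and in 0.965% of all. A match describes letters in a window and is no measure of binding.

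**Figure D1:**
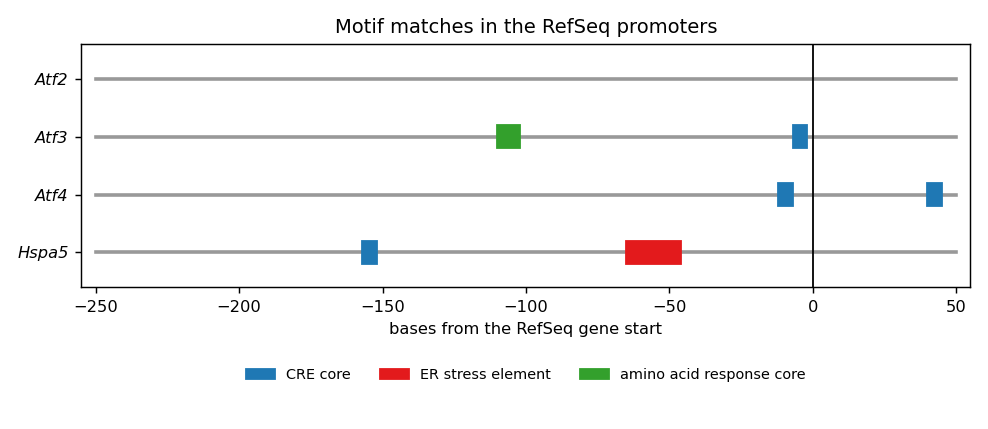
Position of motif matches in the RefSeq promoters of the 4 genes, in bases from the gene start (horizontal axis, start at 0), with each grey line spanning the searched window. The ER stress element lies in Hspa5 and the amino acid response core in Atf3, while the short CRE core appears in Atf3, Atf4 and Hspa5.

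On the sense strand, all 4 genes gave higher signals in each of the tumors than in either normal gland. That order was found at 42.6% of all 404 sense probes. Hspa5 was the most uniform of the 4 genes among tumors. The Hspa5 sense probe gave 15885, 13805, 17291 and 18987 in tumors 1 to 4, against 3432 and 1655 in the normal glands. The lowest tumor thus stood well clear of the higher normal gland, while the normal glands differed from each other by a larger ratio than any of the tumors did. The log2 difference, tumor minus normal, was 2.78 ± 0.47 (standard error, SE, of the limma fit, n = 4 and 2), or 6.87-fold.

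Atf4, the factor whose translation rises in the integrated stress response, gave sense signals of 957, 1077, 431 and 1603 in tumors 1 to 4 and of 233 and 156 in the normal glands. Tumor 3 was the lowest tumor and tumor 4 the highest, a 3.72-fold span, and all tumors stayed above both glands. The log2 difference was 2.27 ± 0.60 (SE), or 4.81-fold.

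Atf3, which ATF4 and other stress factors induce, gave sense signals of 383, 137, 146 and 372 in the tumors and of 47.9 and 29.9 in the normal glands. Tumors 1 and 4 were high and tumors 2 and 3 low within the tumor group, and the groups did not overlap. The log2 difference was 2.61 ± 0.62 (SE), or 6.12-fold.

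Atf2, the partner of JUN downstream of stress kinases, gave sense signals of 2239, 1372, 2182 and 1920 in the tumors and of 855 and 466 in the normal glands. The tumors again lay above both glands, with tumor 2 lowest. The log2 difference was 1.58 ± 0.48 (SE), or 3.00-fold, and was the smallest of the 4. Of all sense probes, 69.6% had a smaller difference than Atf2, against 83.9% for Atf4, 89.9% for Atf3 and 92.3% for Hspa5.

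**Figure D2:**
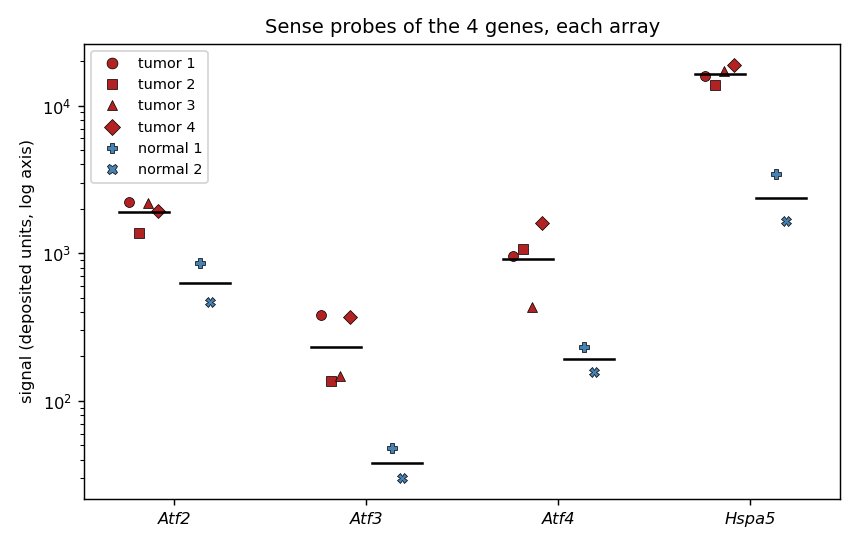
Signal of the sense probe of each gene on each array (log axis, deposited units), with tumors in red, normal glands in blue and black bars at the mean of the log2 signals of a group. In each of the 4 genes every tumor lies above both normal glands, as at 42.6% of all 404 sense probes. The 4 Hspa5 tumor signals, from 13805 to 18987, lie closest together.

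Over all 404 sense probes the median log2 difference was 0.91, so most of these probes were higher in the tumors in the deposited values. Every tumor exceeded both normal glands at 42.6% of sense probes, and the opposite order was found at 3.47%. In the limma fit over all sense probes, with Benjamini-Hochberg adjustment, 58 (14.4%) passed a threshold of 0.05 as higher in tumors and 1 (0.248%) as lower, and the count of both was 1, 0 and 0 without tumor 1, tumor 4 and normal gland 2, 14 without normal gland 1 and 89 without tumor 3. The median log2 difference over all probes changed with the scaling, and the cause of the shift was not tested. It was 0.50 with the deposited scaling and 0.22 when arrays were set to a common 75th percentile. With a common median it was 0.30, and with quantile normalization, which gives all arrays the same distribution, -0.03. The Hspa5 difference was 2.38 to 2.52 under those 3 scalings, the Atf3 difference 2.21 to 2.34, the Atf4 difference 1.87 to 2.00 and the Atf2 difference 1.10 to 1.32.

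Of the 5 epithelial markers measured on the sense strand, Krt18 (a luminal keratin, its probe assigned by position, log2 difference 3.33 ± 0.56, limma adjusted p = 0.0207) and Erbb3 (a receptor of the epidermal growth factor receptor family, 1.98 ± 0.51, adjusted p = 0.0414) passed as higher in tumors. Krt19 (2.31 ± 0.87, limma adjusted p = 0.10), Prlr (3.54 ± 1.06, adjusted p = 0.0566) and Krt14 (0.08 ± 0.57, adjusted p = 0.942) did not pass, and the summed signal of the 5 was 31300 to 117240 in tumors and 7072 and 9323 in the normal glands. The 5 endothelial and 3 stromal markers measured had 0 passing probes on that strand, also 0 at an unadjusted 0.05. Among them the probes of Flt1, Thbd, Vim and Pdgfra were also assigned by position. Endothelial signals summed to 3409 to 5947 in tumors and 3129 to 4272 in the normal glands. Stromal signals summed to 491 to 1098 in tumors and 535 to 874 in the normal glands. None of the 5 immune, 3 cell division and 1 milk gene (Glycam1) measured passed, with 2, 0 and 0 under an unadjusted 0.05. The 2 immune genes went opposite ways, Csf1r higher (1.51 ± 0.51) and Il4 lower (-1.50 ± 0.57) in tumors. Immune signals summed to 11875 to 37749 in tumors and 7558 to 12174 in the normal glands, with Cd4 the largest part on each array. The sums of the cell division genes were 5317 to 12255 in tumors and 5837 to 7670 in the normal glands. Glycam1 gave 5396 to 11866 in tumors and 4105 to 5197 in the normal glands. The probes of Ccnb2, a cell division gene, and of Glycam1 were assigned by position. In a whole-tissue sample a change in the number of cells of a type and a change in the RNA per cell cannot be told apart, and the part of epithelial content in the signals of the 4 genes was not tested.

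The genes were picked for their tumor minus normal values. A test of such values favors a small spread within groups, so the choice may have shaped the spread among tumors given here. The standard deviation (SD) of the log2 signal among the 4 tumors was 0.20 for Hspa5, 0.32 for Atf2, 0.80 for Atf4 and 0.82 for Atf3, against a median of 0.72 over the 385 sense probes above the floor on all 4 tumors. Hspa5 was less variable than all but 3.38% of those probes and Atf2 than all but 10.4%, while Atf4 and Atf3 lay near the middle. Relative to the mean of the tumors, Atf3 stood 0.73 and 0.69 higher in tumors 1 and 4 and 0.75 and 0.66 lower in tumors 2 and 3, on the log2 scale. Atf4 stood 0.80 higher in tumor 4 and 1.09 lower in tumor 3, so the pair did not follow one order across tumors. With normexp background correction and quantile normalization of the tumor arrays alone, the SDs were 0.32 for Hspa5, 0.44 for Atf2, 0.74 for Atf4 and 0.64 for Atf3, which kept Hspa5 lowest of the 4. The share of the 385 sense probes with a smaller SD than Hspa5 was then 15.6%, and than Atf2 31.9%.

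The sense probes most like each gene were found over the 6 arrays by the root mean square (RMS) difference of log2 signals centered on each probe's own mean, among 349 probes of other genes above the floor on all arrays. For Hspa5 these were Dag1 (dystroglycan), Zfp36 (an RNA-binding protein that promotes mRNA decay) and Hsp90ab1 (a cytosolic chaperone), at RMS distances of 0.19, 0.22 and 0.23, where the median of all compared probes was 1.16. For Atf3 they were Ube2b, Ccng1 and Gata3, at 0.27, 0.28 and 0.30 against a median of 1.15, and like Atf3 they were highest in tumors 1 and 4. For Atf4 they were Tfdp1, Gpx3 and Crk at 0.28, 0.29 and 0.30 against 1.04, each highest in tumor 4 and lowest of the tumors in tumor 3. For Atf2 they were Ercc5, Adora3 and Nr4a1, at 0.21, 0.21 and 0.21 against 0.82. Between the 4 genes themselves the distances ran from 0.54 (Atf3 and Hspa5, and Atf3 and Atf4) to 0.76 (Atf2 and Atf4), so none of the 4 was among the 3 nearest of another. The step between tumors and normal glands enters each distance, and 6 arrays give a description with no test.

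**Figure D3:**
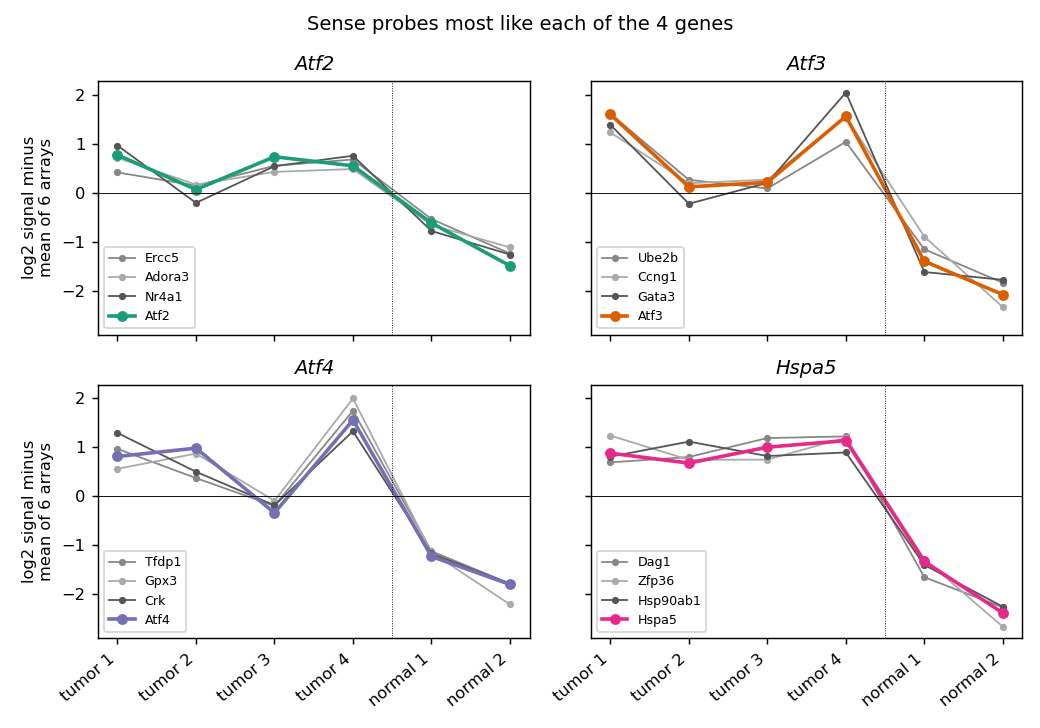
Log2 signal of each gene's sense probe (color) and of its 3 nearest sense probes (grey), each centered on its mean over the 6 arrays, for each array (horizontal axis, tumors left of the dotted line), with lines joining the values of 1 probe only to guide the eye. Atf3 and its neighbors peak in tumors 1 and 4, Atf4 and its neighbors dip in tumor 3, and Hspa5 is level across the tumors.

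The antisense strand showed no common direction. Of the 17 AFAS probes, 4 were higher in every tumor than in both glands, 4 were lower in every tumor, and 9 overlapped, while over all 1750 AFAS probes 21.6% were higher and 6.91% lower in every tumor.

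Many AFAS signals were faint. On the tumor arrays 15 of the 17 probes were called positive and significant by the scanner software on all 4 arrays, but 7 were well above background on all 4, whereas all 4 sense probes were. Above the floor on all 6 arrays were 11 of the 17, with SEs of the log2 difference of 0.48 to 1.22. The share of all probes at the floor was 0.789%, 11.6%, 11.9% and 12.9% on the tumor arrays and 24.4% and 31.1% on those of the normal glands, so a signal at 5 was met most often in the normal glands, and its part in the AFAS signals was not tested.

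Hspa5 had antisense probes on both sides. Hspa5 AFAS 3 gave 59.2, 118, 75.3 and 41.0 in tumors 1 to 4 and 261 and 207 in the normal glands. Each tumor was below both glands here, opposite to the sense probe of the gene. The log2 difference was -1.77 ± 0.52 (SE), or 3.41-fold lower in tumors.

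Hspa5 AFAS 1 gave 63.4, 14.7, 43.6 and 14.5 in the tumors and was listed at the floor of 5 in both normal glands. Hspa5 AFAS 2 gave 61.0, 64.4, 32.5 and 47.9 against 35.3 and 5, and Hspa5 AFAS 4 gave 127, 23.5, 53.2 and 11.2 against 33.4 and 5. Both of these overlapped between groups, since normal gland 1 lay inside the tumor range and only normal gland 2 was at the floor. Hspa5 AFAS 0 gave 17.7 to 63.2 in the tumors and 40.6 and 29.5 in the glands, with a log2 difference of -0.12 ± 0.59 (SE).

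The 5 antisense probes of Atf2 went in different directions. Atf2 AFAS 0 was listed at 5 on all 6 arrays. Atf2 AFAS 1 gave 218, 2465, 2286 and 716 in the tumors and 1023 and 660 in the glands, so the normal glands lay inside a tumor range of 11.3-fold, and the spot of tumor 2 carried an outlier flag of the scanner software. Atf2 AFAS 2 was lower in each tumor, at 96.7, 173, 48.6 and 18.2 against 200 and 480, a log2 difference of -2.32 ± 0.95 (SE). Atf2 AFAS 3 was higher in each tumor, at 123, 53.2, 767 and 37.2 against 28.3 and 28.3. Tumor 3 stood far above the other tumors on that probe, and the log2 difference was 2.05 ± 1.22 (SE). Atf2 AFAS 4 was lower in each tumor, at 42.5, 40.5, 9.84 and 21.8 against 46.8 and 48.6, with tumors 1 and 2 close to the glands.

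Atf3 AFAS 3 was among the 4 antisense probes that were higher in every tumor. It gave 190, 82.2, 125 and 165 in the tumors and 30.5 and 41.8 in the normal glands, with no overlap and a log2 difference of 1.91 ± 0.48 (SE), or 3.76-fold, the same side as the sense probe. Atf3 AFAS 2 gave 370, 1413, 644 and 1751 in the tumors against 1606 and 1595 in the glands. The glands agreed closely on it while the tumors spread 4.73-fold around and below them, and the log2 difference was -0.87 ± 0.71 (SE). Atf3 AFAS 0 gave 178, 151, 18.7 and 24.3 in the tumors and 43.9 and 86.4 in the glands, and Atf3 AFAS 1 gave 88.2, 169, 61.6 and 26.2 against 82.5 and 76.2. Both differed between groups by less than their SE.

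Atf4 AFAS 0 gave 49.2, 42.3, 20.2 and 9.96 in the tumors and was listed at the floor in both normal glands, so no fold was formed. Atf4 AFAS 1 gave 42.1, 39.0, 43.8 and 13.6 in the tumors against 53.2 and 53.0 in the glands, a log2 difference of -0.76 ± 0.59 (SE). Each tumor was below the glands there, tumor 4 by far the most. Atf4 AFAS 2 was at the floor everywhere except tumor 1, at 15.8.

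**Figure D4:**
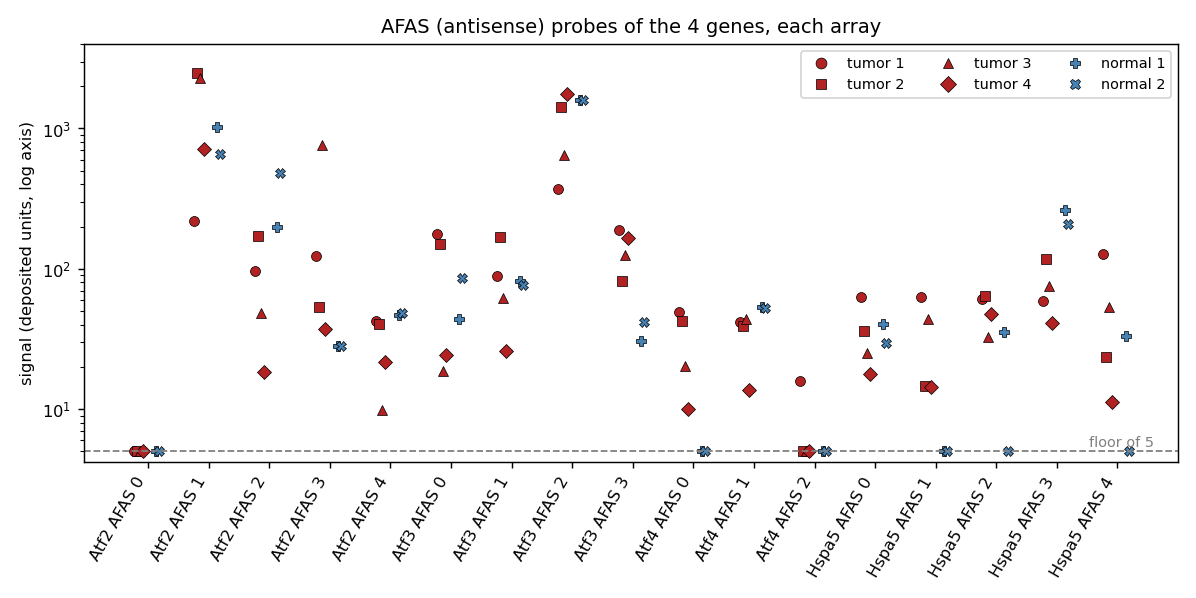
Signal of each of the 17 AFAS probes on each array (log axis, deposited units), with tumors in red, normal glands in blue and a dashed line at the floor of 5. The tumor signals of a probe often span more than the gap to the normal glands, as in Atf2 AFAS 1, and the signals of Hspa5 AFAS 3 lie below both glands in every tumor.

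Among the 15 AFAS probes above the floor on all 4 tumors the median SD of the deposited log2 signal was 1.06, against 0.82 over 1377 such AFAS probes and 0.56 for the 4 sense probes, and the highest were Atf2 AFAS 3 at 1.95 and Atf3 AFAS 0 at 1.71. On 7 of the 15, among them Atf3 AFAS 0, Atf4 AFAS 0 and Hspa5 AFAS 0, tumors 1 and 2 both exceeded tumors 3 and 4, an order found at 30.9% of all 1377. Tumors 3 and 4 shared a slide and tumors 1 and 2 had slides of their own, and the part of the slide in these signals was not tested. These SDs depended on the processing. Normexp background correction, an offset of 50 and quantile normalization of the tumor arrays were also applied, all together. The median SD of the 15 was then 0.35, against 0.39 over the 1377, and it lay below the 0.54 of the 4 sense probes. An offset added to every signal narrows the log2 spread of faint signals most, and its part in this order was not tested. The SD was then smaller by more than 1.5 times in 12 of the 15, as in Hspa5 AFAS 4 (1.51 to 0.47), Atf2 AFAS 4 (0.99 to 0.19) and Atf4 AFAS 0 (1.06 to 0.17), and Atf2 AFAS 1, Atf2 AFAS 3 and Atf3 AFAS 2 stayed wide, at 1.53, 1.39 and 1.06.

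**Figure D5:**
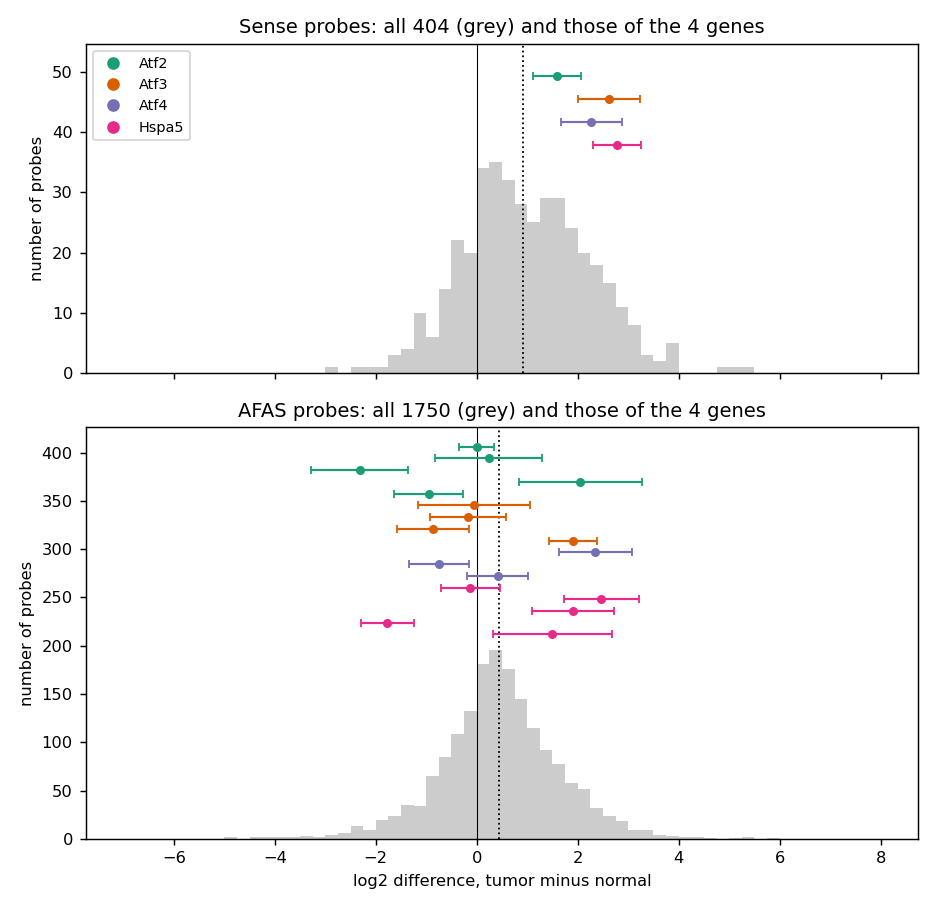
Log2 difference, tumor minus normal (horizontal axis), of all sense probes (top) and all AFAS probes (bottom) as grey histograms of the number of probes, with the probes of the 4 genes as colored points stacked above at arbitrary height, bars at ± 1 SE and a dotted line at the median of the strand. The 4 sense points lie right of the dotted line at 0.91, while the 17 AFAS points fall on both sides of 0.

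Other stress genes measured on the array were counted from a list of 120, of which 18 had a sense probe and 22 an AFAS probe tied to the table. On the sense strand 3 of the 18 (16.7%) passed as higher in tumors and 0 as lower, beside 14.4% of all sense probes as higher. At an unadjusted 0.05, 8 of the 18 were counted, each higher, beside 36.4% of all sense probes as higher and 1.98% as lower, and the median log2 difference of the 18 was 0.95 against 0.91 over all. Fos, a partner of JUN and ATF proteins, gave 2880, 871, 1130 and 2922 in the tumors and 160 and 109 in the glands, a log2 difference of 3.68 ± 0.65 (SE, limma adjusted p = 0.0215). Nfe2l2, the regulator of the oxidative stress response, gave 3282, 2687, 2275 and 4072 against 629 and 323, a difference of 2.74 ± 0.49 (adjusted p = 0.0215), on a probe that was assigned by its position among the entries of Nfe2l2. Hsp90ab1 gave 15406, 19064, 15550 and 16350 against 3328 and 1843, a difference of 2.74 ± 0.45 (adjusted p = 0.0207). Fos, Nfe2l2 and Hsp90ab1 each failed to pass without tumor 1, without tumor 4 and without normal gland 2, and Fos and Nfe2l2 also without normal gland 1. Without tumor 3, 5 genes of the list passed.

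Of the 30 listed genes of the integrated stress and unfolded protein response, the pathways of Atf4 and Hspa5, 1 had a sense probe. This was Pdia4, an ER protein disulfide isomerase, which gave 9569, 9121, 15899 and 11392 in the tumors and 13573 and 13236 in the glands, a log2 difference of -0.26 ± 0.44 (limma adjusted p = 0.724). Ddit3 (CHOP), a target of ATF4, was measured on the antisense strand alone. Of the 6 bZIP relatives on the sense strand, 2 passed (Fos and Nfe2l2), and of the 4 heat shock genes 1 (Hsp90ab1). Of the 3 stress kinase genes and the 4 DNA damage genes on the sense strand 0 passed. None of the 11 listed oxidative stress genes had a probe among the deposited values. Bax, a promoter of apoptosis, had the lowest difference on that strand, at -0.82 ± 0.50 (limma adjusted p = 0.27).

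On the antisense strand 0 of the 90 AFAS probes of the list passed the limma fit, beside 8 (0.457%) of all 1750, each of the 8 higher in tumors, and the methods' t-test passed 0 genes after adjustment. The count over all AFAS probes was 15 without tumor 2 and 0 without tumor 3, tumor 4 or either normal gland, and 1 endothelial and 1 immune marker gene had a passing probe. At an unadjusted 0.05, 23 of the 90 were counted (18 higher and 5 lower), beside 13.0% of all AFAS probes as higher and 3.26% as lower. The median log2 difference was 0.65 over the 90 and 0.44 over all AFAS probes. Among probes above the floor on all 6 arrays, the most positive were AFAS probes of Hspd1, the mitochondrial chaperone (2.15 ± 0.65, adjusted p = 0.195), and Cebpd, a C/EBP factor (1.87 ± 0.37, adjusted p = 0.12), and the most negative were AFAS probes of Fos (-2.14 ± 0.67, adjusted p = 0.204) and Hsf2, a heat shock factor (-1.95 ± 1.47, adjusted p = 0.554). The Ddit3 AFAS probe gave 4105, 3024, 1451 and 6719 in the tumors and 1210 and 762 in the glands, a difference of 1.79 ± 0.67 (adjusted p = 0.266).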

How the data were processed

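RNA of 4 GRS/A mammary tumors and 2 normal mammary glands was measured on 1-color Agilent arrays. The authors took the processed signal of Feature Extraction (9.1.3.1 in the headers), set signals below 5, or not above background, to 5 and scaled each array by 1 factor. The deposited intensity values of the table carry no probe names, and each of the 2156 entries was assigned a probe by comparing its tumor values with the tumor scanner files, which give the same intensity before scaling. In all 2154 entries were tied (404 sense, 1750 AFAS). Of the 21 probes of the 4 genes, 19 were tied by their tumor signals and 2, both near the floor, by neighboring entries. Gene symbols came from RefSeq accessions of assembly GRCm38.p6. The scanner files masked the names of 39878 spots, which were not used, and scanner files of normal glands were not used here. No spot of the 4 genes was saturated.

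In R 4.3.3, log2 signals were fitted with lmFit and eBayes of limma 3.58.1 (two-sided), each strand apart over all its probes, with Benjamini-Hochberg adjustment and a threshold of 0.05. The planned fit had no pairing and no slide term. The number of arrays limits the precision. Tables and motif searches used Python 3.11.15, numpy 2.4.6 and pandas 2.3.3. The limma step was tested on simulated data. The 4 genes, the stress list and the marker lists were chosen with earlier results of these data known. The text names every probe of the 4 genes, their 3 nearest sense probes, the listed stress genes that passed and otherwise the 2 most positive and 2 most negative on a strand. One gene given by this rule and 1 probe sequence are not reported here. Alternatives were a floor of 20, 3 other scalings, a filter on a mean signal of at least 100, limma with trend and robust estimation, the methods' t-test (Student's, on linear and log2 signals), a block on the replicate number, leaving out single arrays and, for the spread among tumors, normexp correction with quantile normalization.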

Additional observations from a re-analysis of the deposited data

Results flagged for a closer look

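The signal of Atf4 AFAS 1 in tumor 4, at 13.6, stood apart from the other tumors at 39.0 to 43.8. The distance from it to the next tumor took up 0.9 of the range of the 4 log2 signals, more than Dixon's test allows at the 95% level. Among the 19 probes of the 4 genes above the floor on all tumors it was the 1 so marked, and chance marks about 1 in 20.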

How the results depend on the processing

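The sense log2 differences of Atf2, Atf3, Atf4 and Hspa5 stayed above 0 under every setting. Leaving out single arrays gave 1.15 to 2.02 for Atf2, 2.27 to 2.95 for Atf3, 1.98 to 2.63 for Atf4 and 2.25 to 3.31 for Hspa5, with the ends set by the normal glands for all but the upper value of Atf4. Quantile normalization moved Atf2 to 1.10. Of the 17 AFAS probes, Atf2 AFAS 1, Atf3 AFAS 0 and 1, Atf4 AFAS 2 and Hspa5 AFAS 0 changed sign under at least 1 setting. Atf2 AFAS 0, at the floor on all 6 arrays, had a difference of 0, and of -0.45 with quantile normalization. The count of sense probes passing was 59, and 21, 23 and 24 with 75th percentile, median and quantile scaling, with 1 of the 4 genes passing under each in place of 3. It was 66 with a floor of 20 (4 of the 4 genes), 72 with the filter on mean signal and 79 with trend and robust estimation (3 of the 4 in both). Counts of the 4 genes come from values that chose them and support nothing. The sense count was 0 to 89 with an array left out (0 to 3 of the 4 genes), and 0 and 1 under the methods' t-test with Benjamini-Hochberg adjustment on linear and log2 signals (0 of the 4 genes in both), and 64 and 122 unadjusted (2 and 4 of the 4 genes). The AFAS count, 8, was 18 with median scaling, 4 with a floor of 20, 5 with the filter on mean signal, 0 to 15 with an array left out, and under the t-test 159 and 211 unadjusted and 0 and 0 adjusted. Of the listed stress genes 3 passed on the sense strand, 5 with the filter or with trend and robust estimation, and 0 to 5 with a tumor left out. Under the t-test on linear and log2 signals 4 and 8 passed unadjusted, and 0 and 0 adjusted. On the AFAS strand 0 passed, against 1 with quantile normalization, 0 with any tumor left out, and 8 and 9 unadjusted under the t-test. With the replicate block 0 sense probes, 0 of the 4 genes, 0 AFAS probes and 0 stress genes passed, with differences of 1.47 (Atf2), 2.60 (Atf3), 2.41 (Atf4) and 2.64 (Hspa5). The numbers are not known to pair the samples: the difference between arrays 1 and 2 correlated at -0.02 between tumors and normal glands over 1423 probes, and only 2 pairs exist, which leaves 1 residual degree of freedom. The cause of these shifts was not tested. Signals within reach of background limit the AFAS probes, and no slide term could be fitted because slide codes of normal glands were not used here.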
